A study of Drosophila melanogaster with 6 samples.

Results

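The NADPH oxidases and peroxiredoxins of Drosophila melanogaster, together with the thioredoxin Trx-2, were examined in larval blood cells that carried a mutant isocitrate dehydrogenase. The set was a list of 9 genes: the oxidases Duox and Nox, the peroxiredoxins Prx2 (also Jafrac1), Jafrac2 (also Prx4), Prx3, Prx5, Prx6005 (also Prx6a) and Prx2540-1 (also Prx6b), and Trx-2. Members were found by gene symbol in the array annotation, taking only probe sets (groups of probes read as 1 value) that the annotation gives to a single gene. Of the 9 genes, 5 had such a probe set, out of 11982 genes with one in the whole series: Duox, Nox, Prx3, Prx6005 and Trx-2, with 6 probe sets in all because Nox had 2. Prx2540-1 was covered by 1 probe set that also matches 2 close relatives, and Prx2, Jafrac2 and Prx5 were not analysed here.

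The samples were circulating hemocytes pooled from 400 wandering larvae each, taken in the third instar on day 7 at 29 °C, with 1 array per pool. The 3 Idh-R195H samples had the genotype hml-Gal4, UAS-2xEGFP with UAS-Idh-R195H added, where Idh-R195H is the fly version of an IDH1 mutant found in human cancers. The 3 control samples had hml-Gal4 and UAS-2xEGFP without that transgene, so the driver and the green fluorescent reporter were common to both groups. The hml-Gal4 driver acts in hemocytes that use the Hemolectin promoter, so transgene expression need not cover every cell of a pool. The labels call the 3 samples of a group biological replicates.

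NADPH oxidases pass electrons from NADPH to oxygen and so make superoxide or hydrogen peroxide; in the fly gut, Duox makes oxidants that act on microbes. Peroxiredoxins remove hydrogen peroxide with a reactive cysteine, which in most of them is then reduced by thioredoxin, and thioredoxin in turn is reduced by thioredoxin reductase at the cost of NADPH. Flies lack glutathione reductase, so their thioredoxin system also keeps glutathione reduced, and wild-type Idh is itself a source of NADPH.

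Array medians overlapped between genotypes, at 76.6 to 83.7 in Idh-R195H and 80.5 to 107 in control (linear intensity). The median of 18 spiked hybridisation control probe sets was 1026 to 1179 in Idh-R195H and 2071 to 2406 in control. The 3′ to 5′ ratio of the Act5C probe sets, which is higher where RNA is degraded or incompletely copied, was 2.13 to 2.39 in Idh-R195H and 3.72 to 6.17 in control; that of Gapdh was 7.89 to 8.09 in Idh-R195H and 8.60 to 13.9 in control. From here on, a gene said to pass, rise or fall had an adjusted p below 0.05 in the limma test of the next paragraph. That test called 1.90% of all probe sets higher and 1.21% lower. Markers of plasmatocytes, the main larval hemocytes, were mostly bright in both groups, with 8 of 8 measured. Their summed intensity was 87703 to 92289 in Idh-R195H and 81051 to 142259 in control. Single markers went both ways without overlap, with crq, eater and Pxn lower and Sr-CI higher in Idh-R195H, and none of the 8 passed. The summed intensity of 6 lamellocyte markers was 65894 to 77093 in Idh-R195H and 5708 to 6827 in control. All 6 were higher on every Idh-R195H array than on any control array, and 5 of the 6 passed. For 4 crystal cell markers the sum was 26799 to 41815 in Idh-R195H and 61171 to 63942 in control, and none of the 4 passed. PPO1 and PPO2 were lower on every Idh-R195H array, while lz and peb, which were far dimmer, overlapped. Among markers of other larval tissues, the sum over 6 salivary gland markers was 991 to 4914 in Idh-R195H and 23143 to 229873 in control. All 6 were lower on every Idh-R195H array than on any control array. Their log2 fold changes were -6.32 to -4.35, and 1 of the 6 passed. Over 5 midgut markers it was 91.0 to 274 in Idh-R195H and 305 to 6532 in control, and none passed. Over 6 markers of trachea and epidermis it was 295 to 438 in Idh-R195H and 1647 to 3333 in control, and 1 fell. Over 3 muscle markers it was 26.4 to 51.9 in Idh-R195H and 72.8 to 142 in control, and 1 fell. The sums of the 3 fat body markers measured overlapped, at 5534 to 50018 in Idh-R195H and 39406 to 108887 in control. All 3 had negative log2 fold changes, with a median of -2.36, and none passed. Of these markers, Lsp2 did not overlap, at 3763 to 19484 in Idh-R195H and 21016 to 43958 in control. No measured marker was at 0 on any array. The part of these differences in the results below was not tested, and in pooled cells fewer cells of a type cannot be told apart from less RNA per cell.

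None of the 5 measured members passed the test between genotypes, and their values fell into separate patterns. Trx-2 was about 2-fold brighter in Idh-R195H hemocytes and lay just outside the threshold, Prx6005 was about 1.3-fold brighter, Prx3 was slightly dimmer, and the oxidases Duox and Nox were dim on every array. The test was limma on log2(intensity + 1), two-sided, with p-values adjusted by Benjamini-Hochberg across 18769 probe sets and a threshold of 0.05. With it, 3.11% of all tested probe sets were called, 1.90% higher and 1.21% lower, against 0 of 5 members in either direction. At an unadjusted p under 0.05 limma called 1 of 5 members, Trx-2, against 20.2% of all probe sets. Arrays of the 2 genotypes did not overlap for 3 of 5 members, of which Trx-2 and Prx6005 were higher and Prx3 was lower, against 28.8% of all probe sets (12.6% higher, 16.2% lower). The median log2 fold change (Idh-R195H minus control) was -0.02 over the 5 members and -0.11 over all tested probe sets.

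**Figure D1:**
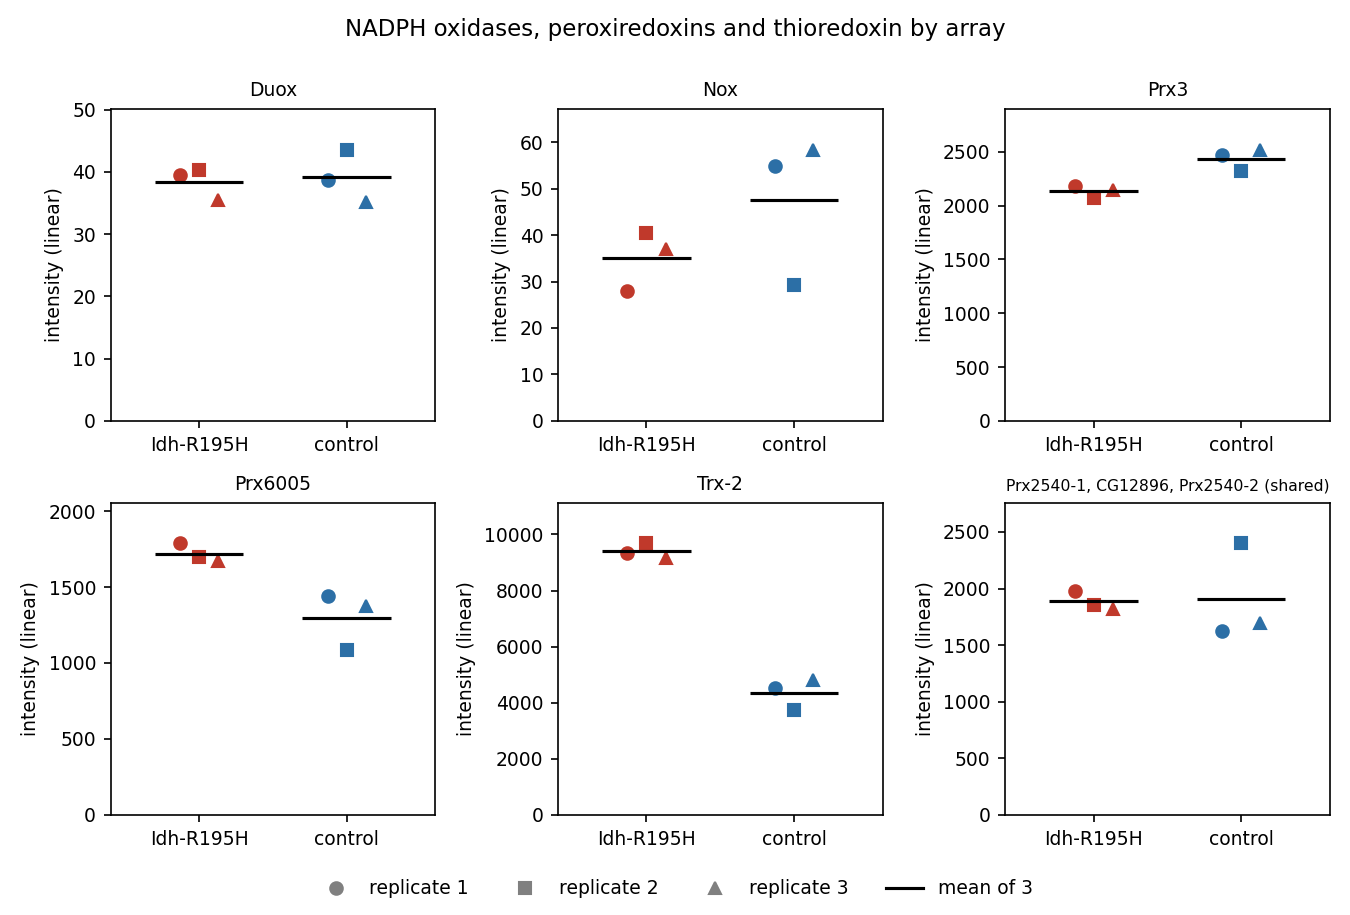
Linear probe set intensity (y axis, from 0) on each of the 3 Idh-R195H (red) and 3 control (blue) arrays for the 5 measured members and for the probe set shared by Prx2540-1, CG12896 and Prx2540-2; symbols mark the replicate and the bar is the mean of 3. All 3 Idh-R195H arrays lie above all 3 control arrays for Trx-2 and Prx6005 and below them for Prx3, while the arrays overlap for Duox, Nox and the shared probe set; the order of the Prx3 arrays holds for the deposited scaling, and its fold change turns positive when arrays are centred on their medians or scaled on the hybridisation controls.

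Trx-2 (CG31884), the general thioredoxin of the fly and the reductant of peroxiredoxins, had intensities of 9343, 9679 and 9179 on the Idh-R195H arrays and 4542, 3736 and 4816 on the control arrays. Every Idh-R195H array was above every control array, and the arrays within each genotype lay close together. The means were 9400.2 ± 255 in Idh-R195H and 4365 ± 561 in control (SD, n = 3 each). This was a log2 fold change of 1.11 ± 0.20 (SE), or 2.17-fold with a 95% interval of 1.53 to 3.06, and the adjusted p in limma was 0.0512. In size this log2 fold change exceeded that of 82.8% of all tested probe sets. It was positive under all 13 alternative settings, from 1.01 to 2.16. Its adjusted p in limma ranged from 0.00346 to 0.204 and passed under 4 of them: scaling on the hybridisation controls, a constant of 16 in place of 1, leaving out dim probe sets, and an intensity trend with a robust prior. The name of this probe set carries the suffix used for probes that several transcripts or similar sequences share, and the annotation gives it to Trx-2 alone.

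Prx6005 (CG3083), a peroxiredoxin of the 1-cysteine class, had intensities of 1786, 1700.2 and 1669 in Idh-R195H hemocytes and 1438, 1082 and 1373 in control hemocytes. The genotypes did not overlap, and the gap between the lowest Idh-R195H array and the highest control array was smaller than the range of the control arrays. The means were 1719 ± 60.6 in Idh-R195H and 1298 ± 189 in control (SD, n = 3 each), a log2 fold change of 0.42 ± 0.21 (SE) that did not pass (limma adjusted p = 0.343). The 95% interval of the fold ran from 0.933 to 1.91. The direction was the same under all 13 alternatives, with log2 fold changes of 0.29 to 1.46, and 1 of them, scaling on the hybridisation controls, passed (limma adjusted p = 0.00621).

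Prx3 (CG5826), the mitochondrial peroxiredoxin, had intensities of 2180.3, 2074 and 2145 in Idh-R195H and 2468, 2321 and 2522 in control hemocytes. The Idh-R195H arrays were all lower, by a margin smaller than the range of the control arrays. Prx3 had a log2 fold change of -0.19 ± 0.18 (SE), with a 95% interval of the fold from 0.641 to 1.20 and an adjusted p of 0.641 in limma. The direction depended on the scaling: the log2 fold change was 0.07 when each array was centred on its median and 0.86 when arrays were scaled on the hybridisation controls, where it passed in limma (adjusted p = 0.0178).

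Because the scaling of the arrays moves all genes together, the 3 brighter members were also compared within each array, where scaling all but cancels. This comparison was chosen after the values were seen. The log2 difference of Trx-2 over Prx3 was 2.10, 2.22 and 2.10 on the Idh-R195H arrays and 0.88, 0.69 and 0.93 on the control arrays. That difference was 1.31 larger in Idh-R195H on the log2 scale. Trx-2 over Prx6005 differed between genotypes by 0.70, with 2.39 to 2.51 in Idh-R195H and 1.66 to 1.81 in control. Prx3 over Prx6005 differed by -0.61, with 0.29 to 0.36 in Idh-R195H and 0.78 to 1.10 in control. Each of the 3 pairs separated the genotypes on every array. An exact two-sided permutation test over samples gave p = 0.1 for each, which is the smallest that 3 against 3 allows. After Benjamini-Hochberg adjustment over the 3 pairs, the p of this test was 0.1. The pairs with Prx3 had to separate, because Prx3 was lower and Trx-2 and Prx6005 were higher on every Idh-R195H array. The pairs also share members, so the test adds no support to the differences above. Unequal change between the members of a pair does not show which of them changed.

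**Figure D2:**
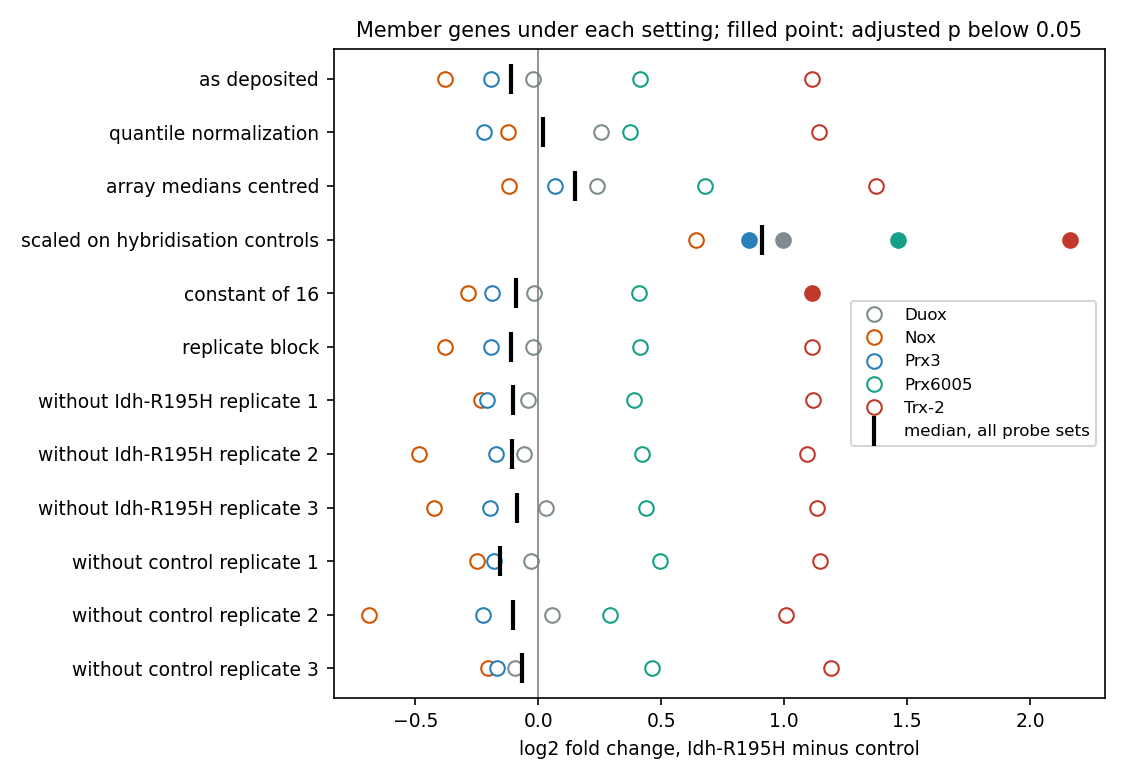
Log2 fold change (x axis, Idh-R195H minus control) of the 5 measured members under the deposited scaling and under 11 of the alternative settings (rows); a filled point has a limma adjusted p below 0.05 and the black tick is the median of all tested probe sets. Trx-2 stays between 1.01 and 2.16 and Prx6005 between 0.29 and 1.46, whereas Duox, Nox and Prx3 change sign with the scaling.

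Both oxidases gave dim signals. Duox (CG3131), the dual oxidase that makes hydrogen peroxide at epithelial surfaces, had intensities of 39.5, 40.4 and 35.4 in Idh-R195H and 38.7, 43.6 and 35.2 in control hemocytes. The Idh-R195H arrays lay within the control range, and all 6 were below the lowest array median of 76.6. Its log2 fold change was -0.02 ± 0.20 (SE) with an adjusted p of 0.972 in limma, and the 95% interval of the fold was 0.701 to 1.38. This sign has no weight, since it turned under 5 of the 12 alternatives that gave a value; scaling on the hybridisation controls gave 1.00 and moved the median of all probe sets by 1.02, to 0.91.

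Nox (CG34399), the second NADPH oxidase of the fly, had intensities of 28.1, 40.3 and 36.9 in Idh-R195H and 54.9, 29.3 and 58.4 in control hemocytes on its brighter probe set. Control replicate 2 lay among the Idh-R195H arrays, so the groups overlapped. The log2 fold change was -0.38 ± 0.34 (SE; limma adjusted p = 0.610), and it was -0.69 without control replicate 2 and 0.64 after scaling on the hybridisation controls. The other Nox probe set was dimmer still, at 8.18, 14.8 and 5.22 in Idh-R195H and 20.2, 7.39 and 2.93 in control, with a log2 fold change of 0.12 ± 0.69 (SE; limma adjusted p = 0.956). At such intensities the arrays do not show whether either oxidase transcript differed, and the added constant of 1 understates the fold changes of dim probe sets.

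Prx2540-1 could not be read on its own. The probe set that matches Prx2540-1, CG12896 and Prx2540-2, a cluster of closely related peroxiredoxins, had intensities of 1983, 1858 and 1819 in Idh-R195H and 1628, 2398 and 1699.5 in control hemocytes. The Idh-R195H arrays lay within the control range, and the log2 fold change was 0.00 ± 0.23 (SE; limma adjusted p = 0.995). Prx2540-2 (CG11765), which is not among the 9 genes, also had a probe set of its own, at 85.8, 101 and 90.8 in Idh-R195H and 199.98, 275 and 146 in control. The groups did not overlap, and the log2 fold change was -1.11 ± 0.29 (SE; limma adjusted p = 0.115), which shrank to -0.07 after scaling on the hybridisation controls.

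The patterns nearest to the 2 members with the largest fold changes were taken as those with the smallest root mean square difference of mean-centred log2 values over the 6 arrays, among 11981 other genes. For Trx-2 these were GstE2, a glutathione S-transferase, at 0.0600, nesd, a gene of cytokinesis, at 0.0666, and CG7565 at 0.0779. Intensities of GstE2 were 1097, 1057 and 981 in Idh-R195H and 542, 405 and 532 in control. For Prx6005 the nearest were RPA3, a subunit of replication protein A, at 0.0198, Dlc90F, a dynein light chain, at 0.0395, and Bub3, of the spindle checkpoint, at 0.0460. RPA3 had intensities of 1501, 1479.7 and 1395 in Idh-R195H and 1235, 915 and 1171 in control. These 6 genes were picked for their likeness to a member over the same arrays, so a similar genotype difference was built into the choice. With that limit, CG7565 had a log2 fold change of 1.25 ± 0.20 (SE, limma adjusted p = 0.0379), and the other 5 did not pass. These outcomes lend no support to the differences of the members.

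Other genes of peroxide and thiol chemistry were described from 6 lists of 38 genes in all, of which 32 were measured. Of the 32 genes 2 rose, 2 fell and 28 did not pass (limma, adjusted over all probe sets; 15 of 32 at an unadjusted p under 0.05), against 3.11% of all probe sets at the adjusted and 20.2% at the unadjusted threshold. Both that fell, MsrA and Srx, repair oxidised sulphur in proteins, and those that rose were p38a, a stress kinase, and Idh itself. The median log2 fold change was -0.10 over the 32 genes and -0.11 over all tested probe sets.

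**Figure D3:**
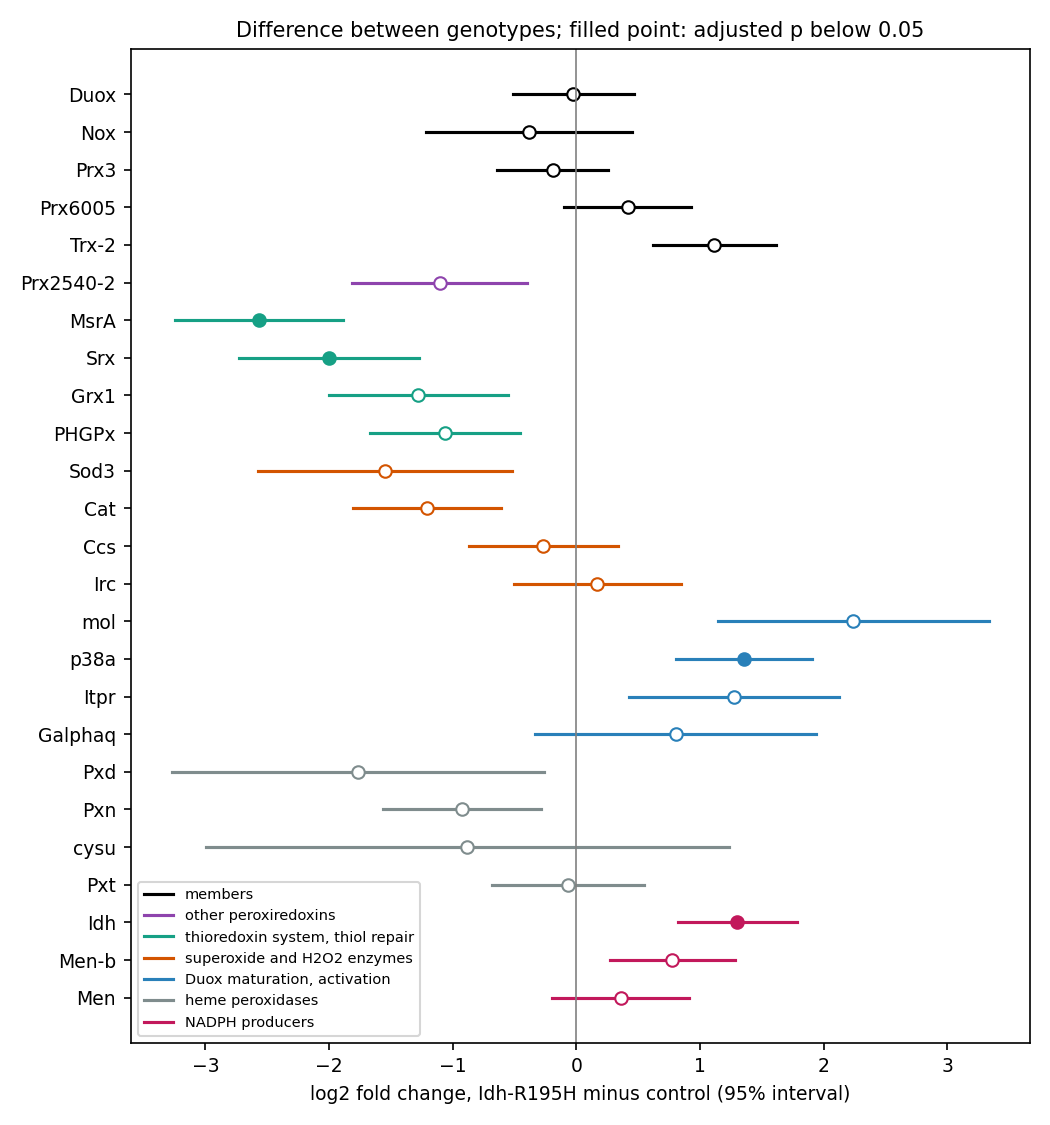
Log2 fold change (x axis, Idh-R195H minus control) with its 95% interval for the 5 measured members and for up to 4 genes of each list, coloured by list; filled points passed in limma (adjusted p below 0.05). The 4 filled points are MsrA and Srx on the left and p38a and Idh on the right; the interval of Trx-2 lies above 0 without passing the adjusted threshold, and the signs of Duox, Nox, Prx3, Ccs, Pxn, cysu and Pxt turn under at least 1 other scaling.

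In the list of the thioredoxin system and thiol repair, 11 of 11 genes were measured, 2 fell and none rose (limma). Of all probe sets, 1.21% fell and 1.90% rose. Arrays of the 2 genotypes did not overlap for 3 genes that were higher and 4 that were lower, against 12.6% and 16.2% of all probe sets. MsrA (Eip71CD), a methionine sulphoxide reductase that was first known as a gene induced by ecdysone, had intensities of 463, 413 and 408 in Idh-R195H and 1830.1, 3264 and 2727 in control hemocytes. All Idh-R195H values were lower, and MsrA fell by 2.57 on the log2 scale (SE 0.28; limma adjusted p = 0.0136). Srx (CG6762), sulfiredoxin, which restores peroxiredoxins whose cysteine has been overoxidised, was at 643, 529 and 852 in Idh-R195H and 2661, 3368 and 2079 in control. It fell by 2.00 on the log2 scale (SE 0.29; limma adjusted p = 0.0308), again with no overlap. The Srx call was lost without any 1 of the 6 arrays (limma adjusted p from 0.0511 to 0.130) and when arrays were centred on their medians (0.0621), while that of MsrA was lost without any 1 Idh-R195H array or control replicate 2 (0.0520 to 0.0864). Scaling on the hybridisation controls shrank both, to -0.95 for Srx and -1.52 for MsrA, and both still passed in limma (adjusted p = 0.0449 and 0.0125). The marker sums of salivary gland, midgut, trachea and epidermis, and muscle were also lower in Idh-R195H, with no overlap between genotypes. The part of these signals in either gene was not tested.

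Other genes of that list lay on both sides of 0. Trxr1, the thioredoxin reductase that passes electrons from NADPH to Trx-2, was at 3177, 3416 and 3071 in Idh-R195H and 1886, 1647 and 1559.6 in control hemocytes; it was singled out after its values were seen. The groups did not overlap, as for Trx-2, and the log2 fold change was 0.93 ± 0.20 (SE; limma adjusted p = 0.0722). PHGPx, a glutathione peroxidase homologue that takes its electrons from thioredoxin, was at 4791, 4449 and 4859 in Idh-R195H and 8136, 12876 and 8970.1 in control. Its log2 fold change of -1.06 ± 0.25 (SE; limma adjusted p = 0.0915) did not pass, nor did that of Grx1, a glutaredoxin, at -1.28 ± 0.29 (SE; limma adjusted p = 0.0895). After scaling on the hybridisation controls these log2 fold changes were -0.01 for PHGPx and -0.23 for Grx1.

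None of the 5 measured enzymes of superoxide and hydrogen peroxide passed (limma, with 2 of 5 at an unadjusted p under 0.05, against 20.2% of all probe sets). Sod1 was listed but not analysed here. Cat, catalase, which breaks down hydrogen peroxide, was at 1919, 1883 and 2155 in Idh-R195H and 4359, 5845 and 3754 in control hemocytes. The groups did not overlap, with a log2 fold change of -1.21 ± 0.24 (SE; limma adjusted p = 0.0644) that shrank to -0.16 after scaling on the hybridisation controls. Sod3, an extracellular superoxide dismutase, had a log2 fold change of -1.55 ± 0.42 (SE; limma adjusted p = 0.123), and -0.52 after that scaling. Ccs, the copper chaperone of superoxide dismutase, and Irc, an immune-regulated catalase, had log2 fold changes of -0.27 ± 0.24 and 0.17 ± 0.27 (SE) with overlapping arrays.

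Of 8 measured genes of Duox maturation and activation, 1 rose and none fell (limma), against 1.90% and 1.21% of all probe sets. The listed norpA and p38b were not analysed here. The gene that rose was p38a, a kinase of the p38 arm that induces Duox in the fly gut. It was at 3645, 3648 and 3218 in Idh-R195H and 1672, 1263 and 1207 in control hemocytes. Its log2 fold change was 1.36 ± 0.22 (SE; limma adjusted p = 0.0390), with no overlap between the groups. The call did not hold when 1 array was left out, except for control replicate 1 (limma adjusted p from 0.0819 to 0.173), after quantile normalization (0.0504) and with arrays centred on their medians (0.0737).

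The Duox maturation factor mol, which brings Duox to the cell surface, was at 248, 593 and 531 in Idh-R195H and 63.0, 89.0 and 129 in control hemocytes. Every Idh-R195H array was higher, with Idh-R195H replicate 1 well below the other two. The log2 fold change of 2.24 ± 0.45 (SE), or 4.72-fold with a 95% interval of 2.21 to 10.1, had a limma adjusted p of 0.0624, which ranged from 0.00722 to 0.203 over 13 alternatives, 6 of which passed. Itpr, the inositol trisphosphate receptor, which releases calcium, had a log2 fold change of 1.27 ± 0.34 (SE, limma adjusted p = 0.124). Galphaq, the G protein subunit upstream of it, had 0.80 ± 0.46 (SE, limma adjusted p = 0.406) on its brightest probe set. Its dimmer probe sets had -0.58 ± 0.38 and 0.10 ± 0.22 (SE), so the direction for Galphaq differed between probe sets.

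**Figure D4:**
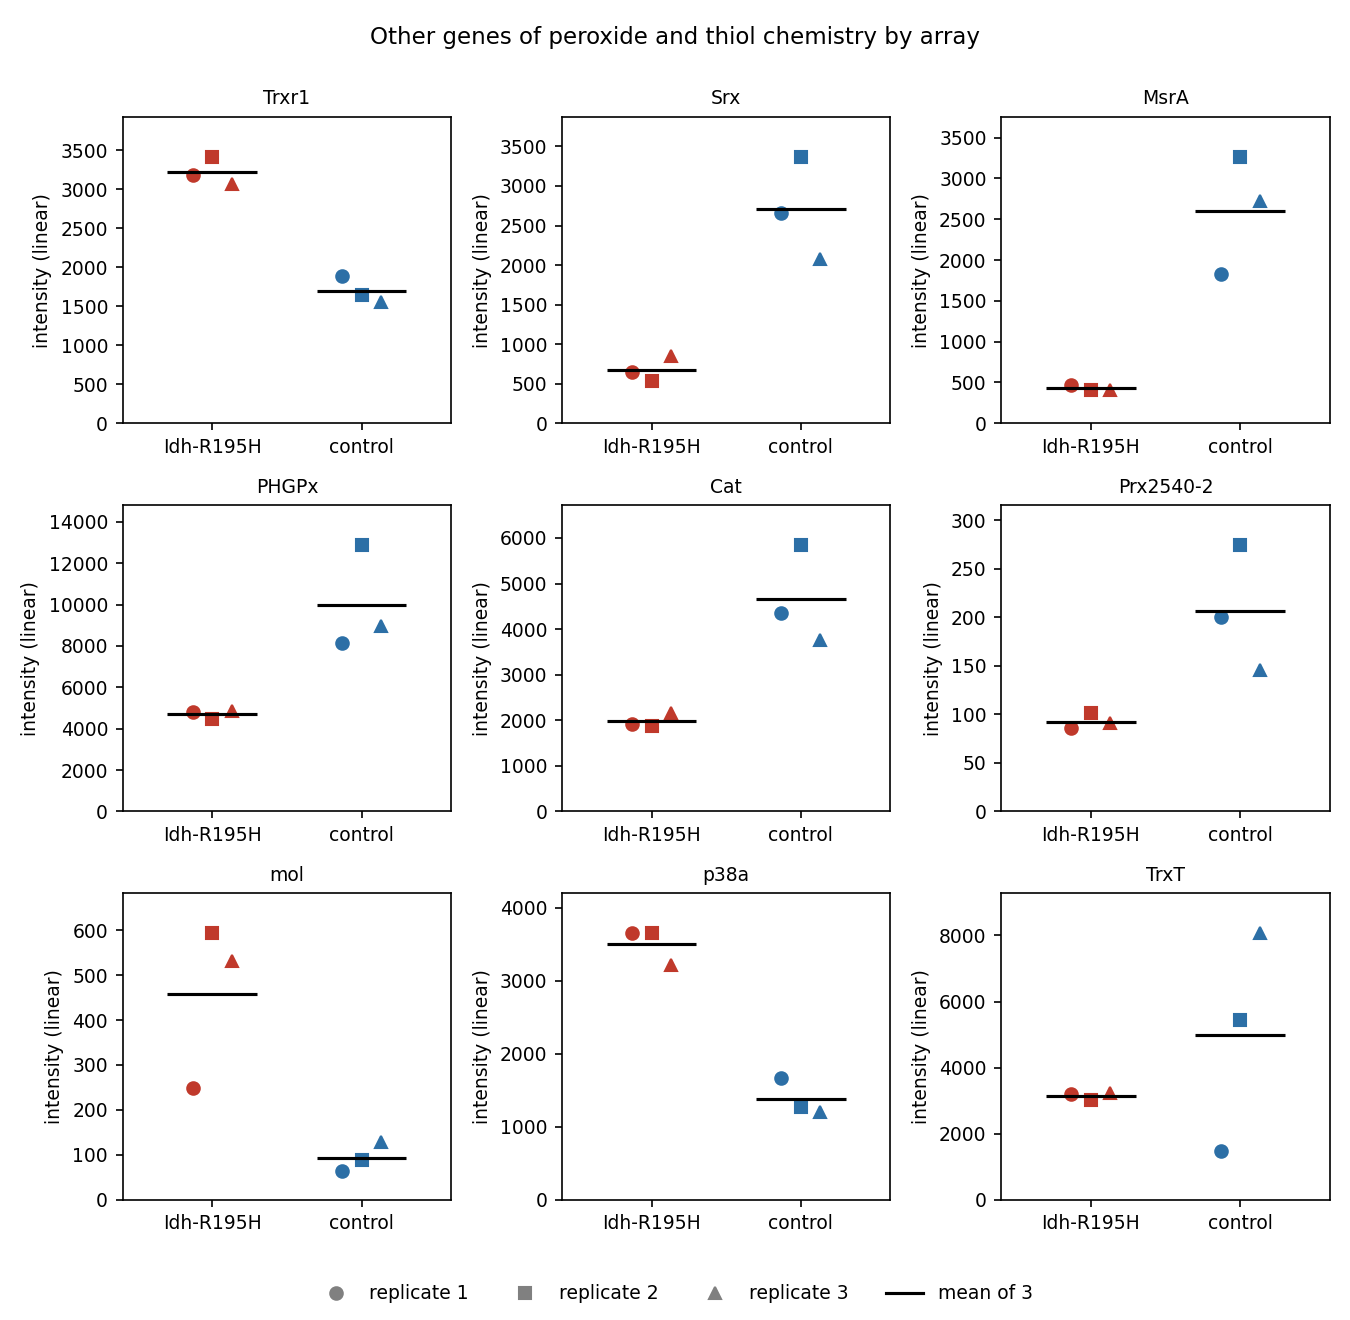
Linear probe set intensity (y axis, from 0) on each of the 3 Idh-R195H (red) and 3 control (blue) arrays for 9 genes of the lists; symbols mark the replicate and the bar is the mean of 3. Trxr1, mol and p38a are higher and Srx, MsrA, PHGPx, Cat and Prx2540-2 lower on every Idh-R195H array, and among these p38a, Srx and MsrA passed; TrxT spans 1487 to 8067 on the control arrays.

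None of the 4 heme peroxidases passed (limma; 2 of 4 at an unadjusted p under 0.05, against 20.2% of all probe sets), and all 4 had negative log2 fold changes with the deposited scaling. Pxn, peroxidasin, a basement membrane enzyme that plasmatocytes make, was at 13145, 12629 and 13830.4 in Idh-R195H and 33872, 23158 and 20176 in control hemocytes. The log2 fold change was -0.93 ± 0.26 (SE, limma adjusted p = 0.131), and it was 0.12 after scaling on the hybridisation controls. A dim second Pxn probe set, with means of 47.3 in Idh-R195H and 40.3 in control, had 0.93 ± 0.83 (SE, limma adjusted p = 0.614). Pxd had a log2 fold change of -1.77 ± 0.61, cysu of -0.88 ± 0.86 and Pxt, a peroxidase of the eggshell, of -0.07 ± 0.25 (SE); all 3 were below the lowest array median on every Idh-R195H array.

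Among the NADPH producers, 3 of 5 were measured, 1 rose and none fell (limma), against 1.90% and 1.21% of all probe sets. Zw and Pgd were listed but not analysed here. Idh (CG7176), the gene that the transgene adds to, was at 11051, 9490.4 and 9360 in Idh-R195H and 3805, 4006 and 4293 in control hemocytes. Its log2 fold change was 1.30 ± 0.19 (SE; limma adjusted p = 0.0319), which is the direction the genotype implies. When 1 array other than control replicate 1 was left out, the adjusted p in limma was 0.0590 to 0.144, and it was 0.0505 with arrays centred on their medians. The malic enzyme genes Men-b and Men had log2 fold changes of 0.78 ± 0.20 and 0.36 ± 0.22 (SE), with every Idh-R195H array higher and limma adjusted p-values of 0.118 and 0.450.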

How the data were processed

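RNA of 6 hemocyte pools was hybridised to 1-colour arrays, from 6 ug of total RNA labelled with biotin per the labels' protocols. The authors deposited 1 linear intensity per probe set and array; the arrays share a trimmed mean of 500 when 2% is left out at each end, a scaling seen in the values. The submitters' processing notes name Partek 6.0 with no role; how probes were summarised, and the genome build, is not given in the sources used here, and coordinates are left out. Of 18952 probe sets, 183 array controls were left out and 18769 tested. Names came from the platform annotation (13647 with 1 symbol, 402 with several, 4720 with none), and 13544 of the first matched RefSeq gene identifiers. The highest-mean probe set stands for a gene. Intensities were taken as log2(value + 1) and compared with limma 3.58.1 (R 4.3.3), a linear model on genotype with empirical Bayes moderation, adjusted over all tested probe sets by Benjamini-Hochberg, with called meaning an adjusted p below 0.05. SE is limma's moderated standard error and intervals are unadjusted. The number of arrays limits the precision.

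The members and lists were chosen with earlier results of these data known. Named are all members, Idh, up to 4 genes of each list with the largest absolute log2 fold change, and the 3 nearest patterns of 2 members; Trxr1, TrxT, dhd and Prx1 were added after their values were seen. Alternatives were 3 other scalings, a constant of 16, leaving out probe sets with a mean below 100, an intensity trend with a robust prior, the replicate number as a block, each array left out in turn, and other probe sets of a member. Same-numbered arrays did not deviate together (correlations of 0.0335, 0.0171 and -0.0674 for replicates 1, 2 and 3), so the numbers were not taken to pair them.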

Additional observations from a re-analysis of the deposited data

How the results depend on the processing

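The number of called probe sets was 584 (356 higher, 228 lower) and moved with the processing: 429 (318 higher, 111 lower) with arrays centred on their medians, 7022 (6858 higher, 164 lower) after scaling on the hybridisation controls, 888 with a constant of 16, 1297 without dim probe sets, 1253 with an intensity trend and robust prior, 0 with the replicate number as a block, and 11 to 870 with 1 array left out, lowest without Idh-R195H replicate 2 and highest without control replicate 1. Members called higher were 4 with hybridisation-control scaling and 1 each with the constant of 16, without dim probe sets and with the trend, against 0 otherwise; no member was called lower under any alternative. Dropping dim probe sets removes Duox and Nox, leaving 3 members. The members' median was 0.26 after quantile normalization, 0.24 with centred arrays, 1.00 with hybridisation-control scaling and 0.42 without dim probe sets. The median of all probe sets shifted by 0.13, 0.26, 1.02 and 0.11 from its value with the deposited scaling. With 1 array left out, the members' median ran from -0.10 to 0.05. Of 32 list genes 4 were called, against 2 with centred arrays, 18 with hybridisation-control scaling, 7 with the constant of 16, 12 without dim probe sets, 11 with the trend, 0 with the replicate block and 0 to 4 with 1 array left out. The replicate block gave limma adjusted p-values of 0.196 for Trx-2, 0.127 for MsrA, 0.167 for Srx, 0.169 for p38a and 0.173 for Idh; the replicates share only a number.

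Signs turned as follows on the log2 scale. Hybridisation-control scaling gave 1.00 for Duox, 0.64 for Nox, 0.86 for Prx3, 0.78 for dhd, 0.69 for TrxT, 0.78 for Ccs, 0.12 for Pxn, 0.94 for Pxt and 0.077 for cysu. Centred arrays gave 0.24 for Duox, 0.069 for Prx3, 0.013 for dhd and 0.19 for Pxt, and quantile normalization gave 0.26 for Duox, 0.13 for dhd and 0.17 for Pxt. With 1 array left out, Duox ran from -0.10 to 0.055 (0.032 without Idh-R195H replicate 3), dhd from -1.14 to 0.34, TrxT from -1.08 to 0.14 and Pxt from -0.26 to 0.085. The other Nox probe set gave 0.12. Of 64 values of members under alternatives 50 kept direction and side of the threshold, 5 kept direction and newly passed, and 9 turned. Among those that turned, Duox and Prx3 also passed after scaling on the hybridisation controls (limma adjusted p = 0.0124 and 0.0178). The causes were not tested. Low intensity limits what can be said of Duox and Nox.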

Other observations

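Among the genes near the members, 3 are described here that varied far more between the control arrays than between the Idh-R195H arrays. They were chosen after their values were seen, and no explanation was tested. Other genes also varied in this way, such as Pxd, at 24.3, 19.3 and 24.6 in Idh-R195H and 203, 62.5 and 39.0 in control. Pxd was highest on control replicate 1 and lowest on control replicate 3, the reverse of the 3 genes below. TrxT, a thioredoxin of the male germline, was at 3188, 3018 and 3217 in Idh-R195H and 1487, 5434 and 8067 in control hemocytes. Prx1 (CG6888), a peroxiredoxin outside the 9 genes and the lists, was at 434, 501 and 396 in Idh-R195H and 126, 416 and 1328 in control. The thioredoxin dhd of the female germline was at 57.6, 57.7 and 57.2 in Idh-R195H and 19.3, 105 and 155 in control. TrxT, Prx1 and dhd were lowest on control replicate 1 and highest on control replicate 3, and their Idh-R195H arrays lay between these extremes. Their log2 fold changes of -0.36 ± 0.64, 0.10 ± 0.83 and -0.25 ± 0.77 (SE) for TrxT, Prx1 and dhd did not pass (limma adjusted p of 0.835, 0.972 and 0.918). On control replicates 1, 2 and 3 the Act5C 3′ to 5′ ratio was 3.72, 4.45 and 6.17, and that of Gapdh was 13.1, 13.9 and 8.60. The part of RNA quality in these 3 genes was not tested. Trx-2 had another order on the control arrays and was lowest on control replicate 2.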
